A study of Mus musculus and Homo sapiens with 9 samples.

Results

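The clustered histone genes are protein-coding genes, most of them for the replication-dependent histones, that lie side by side in a few stretches of the genome. They were taken by symbol from GENCODE: in mouse (M21, mm10) genes whose symbols start with Hist1h, Hist2h, Hist3h or Hist4h, and in human (v44, hg38) genes of the H1-1 to H1-6, H2AC, H2BC, H3C and H4C series. The rule gave 67 of 21938 mouse protein-coding genes (6 H1, 18 H2A, 18 H2B, 12 H3 and 13 H4) and 69 of 20033 human protein-coding genes (6 H1, 17 H2A, 18 H2B, 13 H3 and 15 H4). The measured values did not enter this choice. For each gene, the CUT&Tag peaks over the gene or within 1 kb of it were counted in each of 9 peak lists.

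CUT&Tag tethers a transposase to an antibody's target and sequences the DNA it cuts nearby. S9.6, an antibody that binds RNA-DNA hybrids (R-loops), was applied to mouse embryonic fibroblasts (MEFs) of 4 kinds: wildtype (WT) or knockout (KO) for Mcm8, and with a control hairpin (shControl) or a hairpin against the RNA helicase DDX5 (shDdx5), and a wildtype MEF library was made with no primary antibody. HEK293 cells, a human embryonic kidney line labelled wildtype, were profiled with mouse IgG, with an anti-FLAG antibody after transfection with a FLAG-MCM8 plasmid, with S9.6, and with S9.6 in cells given an RNH1 plasmid. The label RNH1 stands for RNase H1 in the methods, and this enzyme removes the RNA of a hybrid. The MEFs of the KO came from embryos lacking a segment of Mcm8 that includes exon 7, the short hairpins were delivered by adenovirus, and the tagged MCM8 was expressed from a plasmid. Each group held 1 library, so no test between conditions was possible, the lists cannot check the knockout or the knockdown, and each difference below compares 2 libraries.

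Replication-dependent histone genes are short, mostly lack introns, are transcribed strongly in S phase, and make mRNAs that end in a stem-loop instead of a poly(A) tail. H2A and H2B genes often stand head to head and share a promoter. H3 and H4 form the core tetramer of the nucleosome, H2A and H2B add dimers to it, and H1 binds the linker DNA. Here 66 of the 67 mouse members and all 69 human members had a transcript with 1 exon, and the median gene length was 539 bp in mouse and 503 bp in human, against 17425 and 27471 bp over all protein-coding genes. A long gene has more room for a peak, so the counts of members in a list, and those shared between lists, are also given for peaks whose midpoint lay within 1 kb of a transcription start site (TSS), a window of the same size at every start. Every annotated start of a gene counted, so a gene with several starts had more room by this rule too.

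In MEFs, S9.6 peaks at clustered histone genes were rare. A peak lay over or within 1 kb of 2 of 67 members in the WT list (2.99%, exact binomial 95% interval 0.364 to 10.4), of 1 in the KO list (1.49%, 0.0378 to 8.04), of 3 in the shControl list (4.48%, 0.933 to 12.5) and of 7 in the shDdx5 list (10.4%, 4.30 to 20.3). The shares over all protein-coding genes in the same lists were 19.2% (WT), 26.1% (KO), 27.8% (shControl) and 32.7% (shDdx5 list), each above the upper bound of the members' interval. These intervals cover counting error only, and members that share a peak are not independent. At start sites the counts were 0 of 67 in WT (which allows a share of up to 4.48%), 1 in KO, 2 in shControl and 7 in shDdx5, beside 11.3%, 16.0%, 14.7% and 23.1% of all genes, above what the count of 0 allows in WT and above the upper bounds of the members' intervals in the other lists (8.04, 10.4 and 20.3%). Over the 4 S9.6 lists, 12 members had a peak in any list, 17.9% of them against 50.8% of all genes, 1 member had a peak in 2 lists (13.6% of all genes), 0 had one in 3 (9.52%) and 0 in 4 (7.46%). At start sites 10 members (14.9%) had a peak in any of the 4 lists, against 33.9% of all genes, and 0 had one in 2, 3 or 4 lists, where 8.48%, 5.10% and 4.19% of all genes did. No peak at a member in any of the 5 MEF lists had a q of 1e-05 or lower, but few genes passed that q: 0.907% of all genes in WT, 1.86% in KO, 0.0228% without antibody, 0.994% in shControl and 4.90% in shDdx5.

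The MEF library without primary antibody had a peak at 7 of 67 members by either rule (10.4%, 4.30 to 20.3), where all genes had 7.99% by the first rule and 1.24% at start sites. The members' interval spans the share of all genes by the first rule, and its lower bound is above their share at start sites. Where a peak had to overlap the gene itself, the order turned, with 4 of 67 members (5.97%) against 7.51% of all genes. This list came from a shallower library: an estimate from the background of its peaks gave 720 fragments per Mb, against 5729 to 7001 in the 4 S9.6 libraries. Its 5 distinct peaks at members had a pileup of 4 to 6 fragments at the summit, and 1 of them had a q of 0.05 or lower.

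In HEK293 cells, the S9.6 list had a peak at 15 of 69 members (21.7%, 12.7 to 33.3; all genes 43.6%), the RNH1 list at 9 (13.0%, 6.14 to 23.3; all genes 37.0%), FLAG-MCM8 at 14 (20.3%, 11.6 to 31.7; all genes 28.4%) and IgG at 5 (7.25%, 2.39 to 16.1; all genes 26.5%). At start sites S9.6 had 13 (18.8%, 10.4 to 30.1), against 30.1% of all genes, and the RNH1 list had 8 (11.6%, 5.14 to 21.6), against 24.6%. FLAG-MCM8 had 12 at start sites (17.4%, 9.32 to 28.4), against 12.0% of all genes, and IgG had 3 (4.35%, 0.906 to 12.2), against 5.59%. By the first rule the shares of all genes lay above the members' intervals except in FLAG-MCM8. At start sites the share of all genes lay above the interval in the RNH1 list and at its upper bound in S9.6, while the FLAG-MCM8 and IgG intervals span the share of all genes, so no difference from it was detectable with this number of members.

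**Figure D1:**
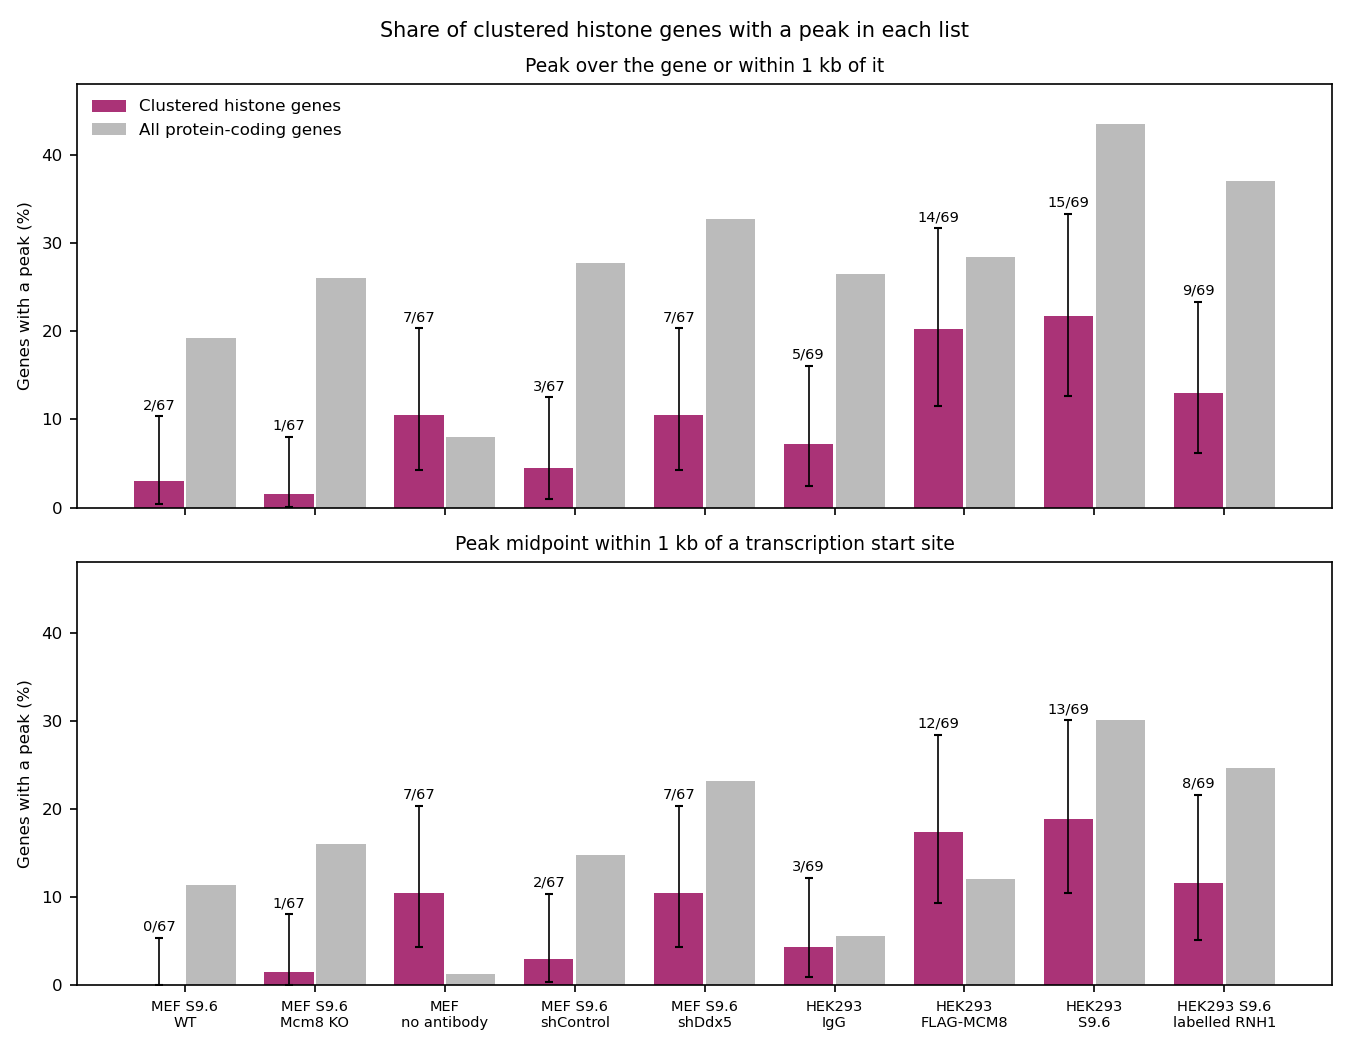
Share of genes (%) with a peak in each of the 9 lists, for clustered histone genes (purple, with the number of members above and exact binomial 95% intervals as error bars) and all protein-coding genes (grey), counted over the gene or within 1 kb (top) or at start sites (bottom). The purple bar stands above the grey one for no antibody in both panels and for FLAG-MCM8 at start sites, and below it in every S9.6 list.

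The start of the strongest member in each S9.6 list and in the FLAG-MCM8 list is shown here, 250 bases before to 50 after the TSS, 5′ to 3′ along the gene. The peaks of Hist2h3c1 in WT, Hist1h3h in KO and Hist2h2bb in shControl lay outside the stretches shown, downstream of them. Mouse sequences are RefSeq promoters (GRCm38.p6, the same coordinates as mm10) and human ones were read from hg38 at the canonical GENCODE start. Motif positions in mouse count from the RefSeq start, which can differ from the GENCODE starts used for summit distances. Capitals mark matches, on either strand, to 6 motifs known from histone and other promoters: the TATA box TATAAA, the NF-Y box CCAAT, the octamer ATTTGCAT bound by POU2F1, the SP1 box GGGCGG, and the E2F sites TTTCGCGC and TTTGGCGC. The H2BC11 stretch is also the divergent promoter that it shares with H2AC11, whose start lies 248 bp upstream on the other strand.
Hist2h3c1: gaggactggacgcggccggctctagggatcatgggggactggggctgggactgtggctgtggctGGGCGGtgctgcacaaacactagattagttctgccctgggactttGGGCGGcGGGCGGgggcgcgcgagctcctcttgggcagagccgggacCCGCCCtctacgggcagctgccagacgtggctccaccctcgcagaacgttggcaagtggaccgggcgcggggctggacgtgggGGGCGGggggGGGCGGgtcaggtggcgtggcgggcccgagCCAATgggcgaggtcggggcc
Hist1h3h: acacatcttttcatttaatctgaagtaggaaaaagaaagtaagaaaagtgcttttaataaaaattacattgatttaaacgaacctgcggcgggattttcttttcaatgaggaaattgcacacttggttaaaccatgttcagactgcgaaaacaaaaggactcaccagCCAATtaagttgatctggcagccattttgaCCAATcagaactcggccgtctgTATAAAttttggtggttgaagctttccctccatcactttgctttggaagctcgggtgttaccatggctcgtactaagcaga
Hist2h2bb: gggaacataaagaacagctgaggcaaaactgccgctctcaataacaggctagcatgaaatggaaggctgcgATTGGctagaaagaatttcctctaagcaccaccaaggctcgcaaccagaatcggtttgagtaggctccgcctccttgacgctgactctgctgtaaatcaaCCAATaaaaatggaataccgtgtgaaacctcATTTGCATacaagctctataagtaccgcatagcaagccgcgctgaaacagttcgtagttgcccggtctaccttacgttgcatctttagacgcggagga
Hist1h3e: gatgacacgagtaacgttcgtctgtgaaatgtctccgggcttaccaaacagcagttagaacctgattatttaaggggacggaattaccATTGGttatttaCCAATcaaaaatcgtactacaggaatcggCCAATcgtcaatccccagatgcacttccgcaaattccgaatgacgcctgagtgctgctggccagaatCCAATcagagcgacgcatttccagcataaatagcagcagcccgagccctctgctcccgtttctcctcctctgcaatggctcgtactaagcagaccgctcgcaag
H2BC11: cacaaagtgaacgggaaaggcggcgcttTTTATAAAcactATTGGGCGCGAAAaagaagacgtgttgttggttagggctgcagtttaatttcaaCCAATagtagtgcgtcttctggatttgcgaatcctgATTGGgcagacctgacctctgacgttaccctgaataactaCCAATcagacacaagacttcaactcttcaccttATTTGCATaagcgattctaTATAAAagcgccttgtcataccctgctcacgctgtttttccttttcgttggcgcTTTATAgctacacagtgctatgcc
H2AC25: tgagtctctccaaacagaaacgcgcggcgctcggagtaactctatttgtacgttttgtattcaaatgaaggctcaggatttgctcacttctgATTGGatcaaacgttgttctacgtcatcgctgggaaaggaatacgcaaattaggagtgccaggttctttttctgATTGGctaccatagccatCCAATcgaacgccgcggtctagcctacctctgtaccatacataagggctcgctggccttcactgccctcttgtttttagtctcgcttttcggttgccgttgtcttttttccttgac

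These 6 starts differ among themselves. Hist2h3c1 (chr3:96246435-96246734, plus strand), the strongest member in WT, is 72.7% G or C with 6 matches to GGGCGG and no TATAAA. Hist1h3h (chr13:21717378-21717677, plus strand; strongest in KO) is 39.3% G or C with a TATAAA that starts 31 bases before the TSS. Hist2h2bb (chr3:96269450-96269749, plus strand; strongest in shControl) and H2BC11 (chr6:27132746-27133045, minus strand; strongest in HEK293 S9.6 and in the RNH1 list) both hold the octamer, 48 and 47 bases before the TSS. In H2BC11, near the H2AC11 start, TATAAA matches on the 2 strands overlap each other, and an opposite-strand CCAAT abuts an opposite-strand TTTCGCGC. Hist1h3e (chr13:23562336-23562635, minus strand; strongest in shDdx5) holds 4 CCAAT matches and H2AC25 (chr1:228457824-228458123, minus strand; strongest in FLAG-MCM8) holds 3, with no TATAAA in either.

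Over all members, 4 of the 6 letter strings (the CCAAT string, TATAAA as a TATA box, the octamer ATTTGCAT and the E2F string TTTCGCGC) were in larger shares of promoters than over all genes in both species, with the share of all genes outside the exact binomial 95% interval of the members' share. The promoters of a divergent pair overlap and some members are near-identical copies, so the promoters are not independent and these intervals cover counting error only. CCAAT was in 53 of the 62 mouse members with a RefSeq promoter (85.5%) and 59 of 69 human members (85.5%), against 39.1% and 36.1% of all protein-coding promoters of the same length. Here and below, all mouse promoters are those of the 16672 protein-coding genes matched to a RefSeq promoter, and all human ones those of 20033 genes. TATAAA was in 56.5% of mouse and 66.7% of human members (13.2% and 9.71% of all), and ATTTGCAT in 21.0% and 37.7% (1.68% and 1.62% of all). TTTCGCGC was in 14.5% and 18.8% of members (0.468% and 0.714% of all) and TTTGGCGC in 0 of either, where 0.690% and 0.864% of all promoters hold it. GGGCGG was in 37.1% of mouse members (25.2 to 50.3), an interval that spans the 48.1% of all, and in 26.1% of human members (16.3 to 38.1), below the 61.3% of all. The members' median G or C content was 45.3% and 44%, against 57.0% and 63.7%.

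The split of members by S9.6 peak is a description over few genes. In mouse, CCAAT was in 9 of 12 members with an S9.6 peak in any list and in 44 of 50 without, and TATAAA in 4 of 12 and 31 of 50. In human, CCAAT was in 11 of 15 and 48 of 54, and TATAAA in 8 of 15 and 38 of 54. The median G or C content was 44.5% with and 45.5% without a peak in mouse, and 44.3% and 42.7% in human. Hist2h2be, Hist2h4, Hist1h3f, Hist1h2bc and Hist1h3a had no entry in the mouse table.

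The comparison of KO with WT asks where R-loops differ without MCM8. No member had a peak in both lists, where 11.8% of all genes did (6.66% at start sites), but WT held only 2 members with a peak and KO 1. In WT, both peaks lay past the 3′ end of H3 genes of the chromosome 3 cluster. The stronger was a 309 bp peak (chr3:96248854-96249162) downstream of Hist2h3c1, with its summit 2324 bp from the TSS, a fold enrichment of 4.28 over the local background, a −log10 q of 2.36 and a pileup of 13 against a local background of 2.27 (pileup being the number of sequenced fragments over the summit, recovered from the fold and p). The other lay downstream of Hist2h3c2, 1535 bp from its TSS, with a fold of 3.35 and a −log10 q of 0.813. The single KO peak at a member was downstream of Hist1h3h, an H3 gene of the chromosome 13 cluster, 989 bp from its TSS, with a fold of 3.65, a −log10 q of 1.15 and a pileup of 9. All 3 of these peaks lay outside the genes themselves. By the first rule 1 member had a peak in KO and not in WT (14.3% of all genes) and 2 in WT and not in KO (7.43%), and at start sites 1 (9.38%) and 0 (4.66%). WT had the larger count of members by the first rule (2 against 1) and KO at start sites (1 against 0), so the order of the 2 lists turns with the counting rule. The estimated depth of the KO library was 0.883 times that of WT.

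The knockdown of DDX5, a helicase that unwinds R-loops, was compared with shControl. The shDdx5 list had a peak at 7 members that had none in shControl, where 15.1% of all genes did, and shControl had a peak at 3 members that had none in shDdx5, where 10.2% of all genes did. No member had a peak in both, where 17.5% of all genes did. At start sites 7 members had a peak in shDdx5 and not in shControl (13.3% of all genes), 2 the reverse (4.97%) and 0 both (9.77%). The strongest of the 6 distinct peaks in shDdx5 was at Hist1h3e, with its summit 19 bp before the TSS, a fold of 4.49, a −log10 q of 2.76 and a pileup of 11 against a local background of 1.67. It ranked 2563 of 11768 peaks in its list.

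The next peaks in shDdx5 were at Hist2h3c2, 723 bp past its TSS (fold 4.28, −log10 q 2.72), and over the start of the H2A gene Hist2h2ab, with the summit 69 bp before its TSS (fold 4.07, −log10 q 2.44), within 1 kb of its H2A neighbour Hist2h2ac. Hist3h2a, an H2A gene of the chromosome 11 cluster, had an 874 bp peak, the widest at any mouse member, with a fold of 4.05 and a −log10 q of 2.198. The H4 genes Hist4h4 (fold 3.60, −log10 q 1.48) and Hist1h4i (fold 3.37, −log10 q 0.959) had the weakest. The first 5 of these peaks had a q of 0.05 or lower and Hist1h4i did not. In the whole shDdx5 list 60.5% of peaks passed that q, against 28.1% in shControl, while the estimated depths of the libraries stood at a ratio of 1.03.

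In shControl, a 374 bp peak lay over the H2B gene Hist2h2bb with its summit 145 bp past the TSS (fold 3.62, −log10 q 0.915, pileup 8) and reached within 1 kb of Hist2h3b. The second lay 963 bp before the start of Hist1h4b (fold 3.27, −log10 q 0.528, pileup 7). Neither had a q of 0.05 or lower. Of the 11 distinct S9.6 peaks at mouse members, none overlapped a peak of another S9.6 list. Hist2h3c2 was the member with peaks in 2 lists, WT and shDdx5, and its 2 peaks lay on different stretches, downstream of the gene in WT and over its 3′ part in shDdx5.

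The no-antibody peaks were at other members, apart from Hist4h4. The strongest was at Hist2h4, an H4 gene, 187 bp past the TSS, with a fold of 5.00, a −log10 q of 1.81 and a pileup of 6 against a local background of 0.399, and it ranked 216 of 4314. Peaks followed 748 bp before Hist1h4j (fold 4.21, −log10 q 1.16) and 248 bp past the start of Hist4h4 (fold 3.95, −log10 q 1.03). The other two lay in the divergent promoters of Hist1h2ac and Hist1h2bc (fold 3.87, −log10 q 0.894) and of Hist1h2ak and Hist1h2bn (fold 3.003, −log10 q 0.249), each within 113 bp of the H2B start. Hist4h4 was the member with both a no-antibody and an S9.6 peak, in shDdx5, and these 2 peaks overlapped. Of the 12 divergent H2A-H2B pairs in mouse, 2 had a shared peak without antibody, and none had one in any of the 4 S9.6 lists.

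**Figure D2:**
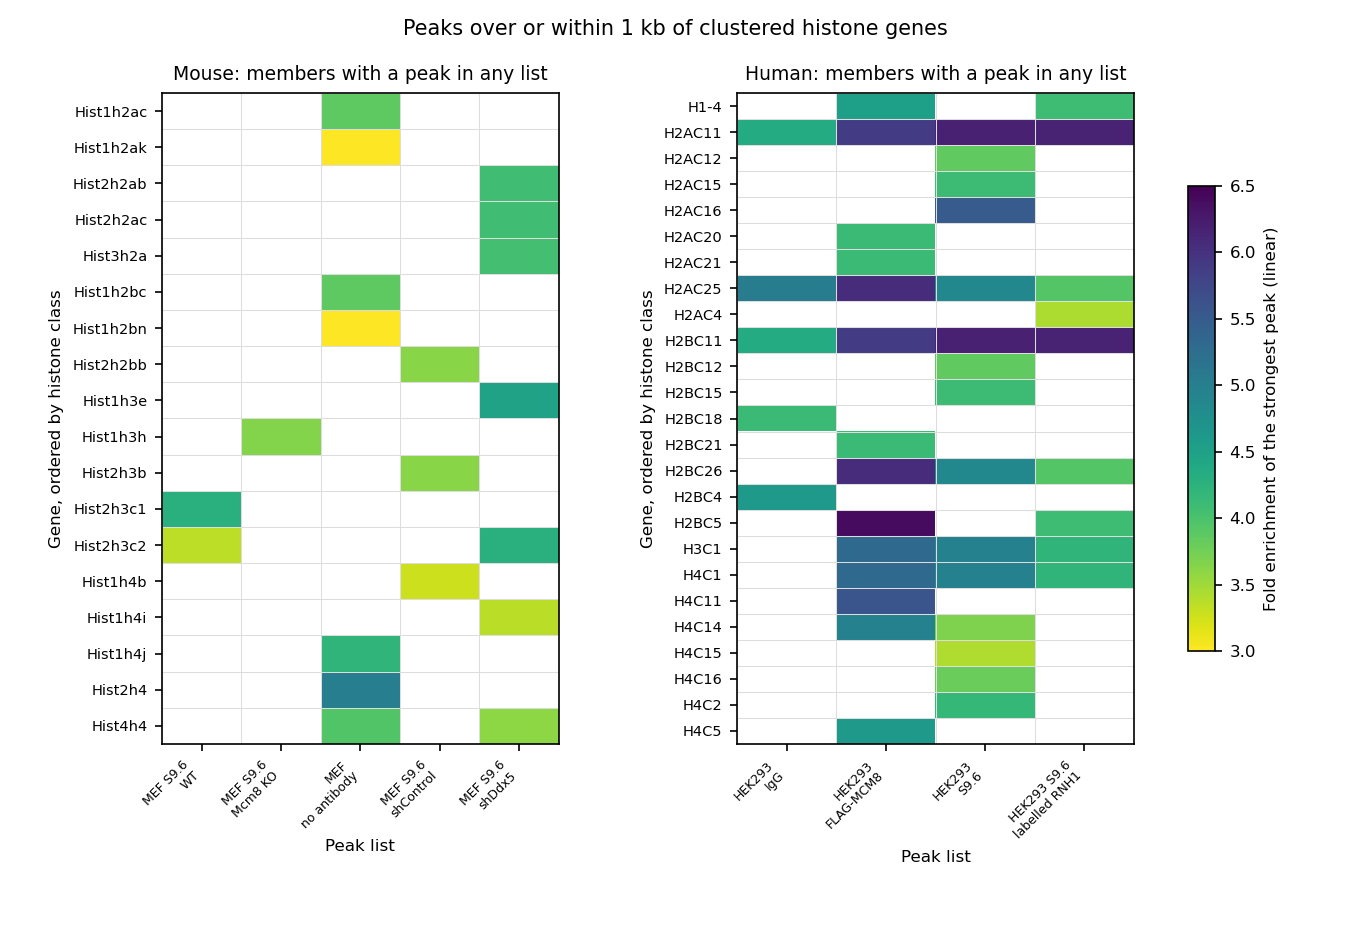
Members with a peak in any list (rows, ordered by histone class) by peak list (columns), for the 18 mouse and 25 human members, coloured by the fold enrichment of the strongest peak, with white for no peak. The mouse rows hold 1 filled cell each except Hist2h3c2 and Hist4h4, while the human rows of H2AC11, H2BC11, H2AC25, H2BC26, H3C1 and H4C1 are filled in FLAG-MCM8, S9.6 and the RNH1 list.

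In HEK293 cells, peaks of FLAG-MCM8, S9.6 and the RNH1 list all overlapped at 3 loci. These were the divergent pair H2BC11 and H2AC11, the divergent pair H2AC25 and H2BC26, and H4C1, whose peak also reached within 1 kb of H3C1. They account for all 6 members with a peak in all of the 3 lists. The pair H2BC11 and H2AC11 also had an IgG peak, and the other 2 loci had none there that overlapped. At H4C14, peaks of FLAG-MCM8 and S9.6 overlapped, and the RNH1 list had none.

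H2BC11 (ENSG00000124635.9, minus strand) and H2AC11 (ENSG00000196787.4, plus strand) carried the strongest member peak in S9.6 and in the RNH1 list. In S9.6 the peak (chr6:27132747-27133104) had its summit 10 bp before the H2BC11 start, inside the stretch printed above, a fold of 6.18, a −log10 q of 13.4 and a pileup of 31 against a local background of 4.18, and ranked 1105 of 15147. In the RNH1 list the summit was at the same position, with a fold of 6.17, a −log10 q of 13.7 and a pileup of 32 against a local background of 4.35, and ranked 750 of 12497. FLAG-MCM8 had its summit 9 bp before the same start, with a fold of 5.87, a −log10 q of 8.17 and a pileup of 20. The IgG peak had its summit 82 bp past the H2AC11 start, with a fold of 4.35, a −log10 q of 5.38 and a pileup of 18. Values of a peak depend on the depth of its own library, so no ratio between lists was formed.

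H2AC25 (ENSG00000181218.6, minus strand) shares its start region with H2BC26 on chromosome 1. FLAG-MCM8 had its strongest member peak there (chr1:228457488-228457901, summit 167 bp past the H2AC25 start, fold 6.06, −log10 q 8.50, pileup 20, rank 989 of 13295). The S9.6 summit lay 2 bp before that start with a fold of 4.86 and a −log10 q of 10.1, and that of the RNH1 list 188 bp past it with a fold of 3.94 and a −log10 q of 6.52. H4C1 had its summit 69 bp past the TSS in FLAG-MCM8 (fold 5.31, −log10 q 6.21), 82 bp past it in S9.6 (fold 4.96, −log10 q 7.78) and 242 bp past it in the RNH1 list (fold 4.21, −log10 q 5.90). H3C1 had no peak of its own at its start and is counted through the H4C1 peaks.

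FLAG-MCM8 and S9.6 both had a peak at 7 members, 10.1% of them against 18.5% of all genes. At start sites the order turned, with 6 members (8.70%) against 7.39% of all genes. Besides the 6 members at the 3 loci, the seventh was H4C14, an H4 gene of the chromosome 1 cluster, with a fold of 4.97 in FLAG-MCM8 and 3.67 in S9.6. At H4C14 every 32-base stretch of the gene, and of both peaks, had another exact copy in hg38, so the list cannot say from which copy the reads came. FLAG-MCM8 had a peak at 7 members without one in S9.6 (10.1%, against 9.93% of all genes), and at start sites at 6 (8.70%, against 4.62%). The 7 were H4C11 (fold 5.58, −log10 q 6.05), H4C5 (fold 4.62, −log10 q 3.91), H2BC5 with H1-4 (fold 4.53, −log10 q 4.28 for the peak near both, and fold 6.40, −log10 q 7.94 for a peak 7753 bp inside H2BC5), and H2AC20 with H2BC21 and H2AC21 (fold 4.12, −log10 q 3.51). The IgG library was the deeper, with an estimated depth of FLAG-MCM8 over IgG of 0.761.

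The paper included the RNH1 group to check the specificity of its R-loop mapping, since RNase H1 removes the RNA of hybrids. It reported lower relative signal in that group, with slight decreases at some loci. With 1 library each, whether hybrids were removed at members was not tested. The S9.6 list had a peak at 9 members with none in the RNH1 list, where 15.9% of all genes did, and both lists had one at 6 members, where 27.7% of all genes did. At start sites these counts were 8 (12.6% of all genes) and 5 (17.5%). The 9 were H2AC16 (fold 5.49, −log10 q 6.81), H4C2 (fold 4.17, −log10 q 5.11), H4C14, H2AC15 and H2BC15 with 2 peaks (fold 4.10 and 3.96), H4C15 (fold 3.42, −log10 q 4.26), H2AC12 and H2BC12 (fold 3.86, −log10 q 4.09) and H4C16 on chromosome 12 (fold 3.80, −log10 q 3.58). The H4C15 summit lay 5249 bp past its TSS, inside the gene. Every stretch of that peak, measured as at H4C14, had another exact copy in hg38, so the source of its reads is unclear. This share was 64.1% in the H2BC15 peak with a fold of 3.96. Apart from H4C14, it was 32.6% or lower in the other peaks of these members. The RNH1 list had a peak at 3 members with none in S9.6 by either rule, where 9.36% of all genes did by the first rule and 7.18% at start sites. They were H2BC5 with H1-4 (fold 4.08, −log10 q 4.67) and H2AC4 (fold 3.43, −log10 q 2.95). It also had a second peak at H2AC25, past the far end of the gene (fold 3.27, −log10 q 2.72). Of the 15 members with an S9.6 peak, 6 also had a peak in the RNH1 list, beside 63.5% of all genes with an S9.6 peak, and at start sites 5 of 13 (38.5%), beside 58.1%. These 15 members held 11 distinct S9.6 peaks, no interval was formed, and a difference from all genes was not tested. The S9.6 peaks at the 6 members ranked 1105, 2112 and 3692 of 15147, and the other S9.6 peaks at members ranked from 4848 to 13180. The estimated depth of the RNH1 library was 1.06 times that of S9.6.

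IgG peaks were at 5 members. Besides H2AC11 and H2BC11, they were at H2BC18 (1 bp past a TSS, fold 4.12, −log10 q 4.78), H2BC4 and H2AC25. The H2BC4 peak (fold 4.61, −log10 q 6.01) lay inside its 37610 bp model, 1139 bp past a TSS. The H2AC25 peak (fold 5.03, −log10 q 8.25) lay 11633 bp inside its long model, away from its start. Every 32-base stretch of the H2BC18 peak had another exact copy in hg38.

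By histone class the groups are small. None of the 6 mouse H1 genes had a peak in any of the 5 MEF lists, and of the 6 human ones H1-4 had one, in FLAG-MCM8 and in the RNH1 list, through the peak it shares with H2BC5. In HEK293 S9.6, 5 of 17 H2A, 4 of 18 H2B, 1 of 13 H3 and 5 of 15 H4 genes had a peak by the first rule (43.6% of all genes). At start sites these counts were 5, 4, 0 and 4 (30.1% of all genes). FLAG-MCM8 had 4 H2A, 4 H2B, 1 H3 and 4 H4 genes by the first rule (28.4% of all genes). At start sites it had 4, 4, 0 and 4 (12.0% of all genes). In shDdx5 MEFs 3 of 18 H2A, 0 of 18 H2B, 2 of 12 H3 and 2 of 13 H4 genes had a peak by either rule. All genes had 32.7% by the first rule and 23.1% at start sites. The no-antibody list had 2 H2A, 2 H2B, 0 H3 and 3 H4 genes by either rule (7.99% and 1.24% of all genes). Of the 12 human divergent H2A-H2B pairs, with starts 170 to 251 bp apart, 4 had a shared peak in S9.6, 3 in FLAG-MCM8, 2 in the RNH1 list and 1 in IgG. The share over other divergent promoters was not counted.

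In HEK293 S9.6, 10 of 11 distinct member peaks had the summit within 500 bp of a member TSS, in FLAG-MCM8 7 of 9, in the RNH1 list 4 of 6 and in IgG 2 of 4. In MEFs, where peaks were called at another threshold, 4 of 11 peaks in the 4 S9.6 lists together had it there, 3 of them in shDdx5, and 4 of 5 in the no-antibody list.

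**Figure D3:**
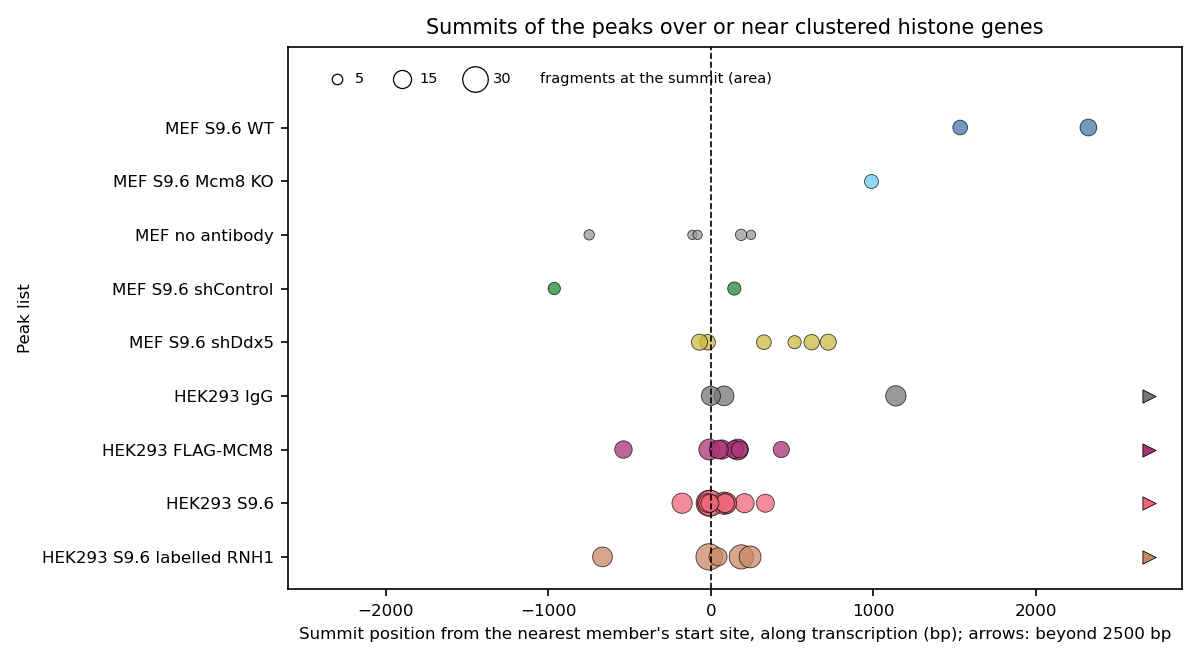
Summit of each of the 46 distinct peaks at members, as its distance in bp from the nearest member start along the direction of transcription (horizontal axis), by list (vertical axis), with the circle area giving the fragments at the summit. Arrows on the right mark summits beyond 2500 bp, and the 3 circles of WT and KO lie at 989 bp or farther downstream.

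The members lie in 5 stretches in mouse and 6 in human, where a gap of over 500 kb between neighbours starts a new stretch. The largest are on mouse chromosome 13 (chr13:23531050-23934851 with 31 members and chr13:21715763-22043676 with 23) and human chromosome 6 (chr6:25723397-26285638 with 34). The stretches span 0.793 Mb in mouse and 0.807 Mb in human and hold 10 and 8 other protein-coding genes. Of those 10 mouse neighbours, 2 had a peak by the first rule in WT (19.2% of all genes) and 1 in KO (26.1%). By that rule 1 had one in shControl (27.8%), 2 in shDdx5 (32.7%) and 0 without antibody (7.99%). At start sites these counts were 0 in WT (11.3% of all genes), 1 in KO (16.0%), 0 in shControl (14.7%), 2 in shDdx5 (23.1%) and 0 without antibody (1.24%). Of the 8 human neighbours, 1 had a peak by the first rule in S9.6 (43.6% of all genes) and 0 in the RNH1 list (37.0%). By that rule 2 had one in FLAG-MCM8 (28.4%) and 2 in IgG (26.5%). At start sites these counts were 1 in S9.6 (30.1% of all genes), 0 in the RNH1 list (24.6%), 1 in FLAG-MCM8 (12.0%) and 0 in IgG (5.59%). The members' own counts in the same lists are those given above.

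Genes that serve the clustered histone genes but lie elsewhere had S9.6 peaks at their starts in larger shares than the members did. The shares of all genes at starts were 11.3% in WT, 16.0% in KO, 14.7% in shControl, 23.1% in shDdx5 and 1.24% without antibody. In HEK293 cells they were 30.1% in S9.6, 24.6% in the RNH1 list, 12.0% in FLAG-MCM8 and 5.59% in IgG. Of 18 genes for making and processing histone mRNA, 6 had a peak at the start in WT MEFs, 11 in KO, 9 in shControl, 12 in shDdx5 and 0 without antibody. In HEK293 cells 12 had one in S9.6, 8 in the RNH1 list, 2 in FLAG-MCM8 and 2 in IgG. Their share in FLAG-MCM8 (11.1%) and the count of 0 without antibody were below the shares of all genes. Npat, the coactivator of histone gene transcription, had one in all 4 MEF S9.6 lists (fold 4.39 for WT, 5.07 for KO, 5.05 for shControl, 4.71 for shDdx5), and NPAT had a fold of 7.64 in HEK293 S9.6 and 5.66 in the RNH1 list. SLBP, which binds the stem-loop of histone mRNA, had a peak at its start in FLAG-MCM8 with a fold of 7.76 and a −log10 q of 16.6, higher than any member in that list, and in S9.6 with a fold of 4.66. NFYA, a subunit of the factor that binds CCAAT, had a fold of 7.76 and a −log10 q of 33.8 in HEK293 S9.6, and a fold of 8.70 and a −log10 q of 40.4 in the RNH1 list.

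Replacement histone genes lie outside the clusters and are expressed outside S phase too. Of 11, 1 had a peak at the start in WT, 3 in KO, 3 in shControl, 4 in shDdx5 and 0 without antibody, and 5 in HEK293 S9.6, 4 in the RNH1 list, 1 in FLAG-MCM8 and 0 in IgG. The share of 9.09% in WT and in FLAG-MCM8 was below the 11.3% and 12.0% of all genes, as were the counts of 0. H2afv had one in all 4 MEF S9.6 lists, with a fold of 3.82 for WT, 5.58 for KO, 6.42 for shControl, and 6.95 for shDdx5. Of 12 mouse histone chaperone genes found, 6 had a peak at the start in WT, 6 in KO, 7 in shControl, 10 in shDdx5 and 1 (Nasp) without antibody. Of 13 human ones, 9 had a peak in S9.6, 6 in the RNH1 list, 4 in FLAG-MCM8 and 1 in IgG. Asf1b, a carrier of H3 and H4, had one in all 4 MEF S9.6 lists, and ASF1B in HEK293 S9.6 (fold 7.099), in the RNH1 list (fold 7.097, −log10 q 19.6) and in FLAG-MCM8 (fold 5.67). These lists were drawn up with earlier results of the data known and were not tested against the members.

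**Figure D4:**
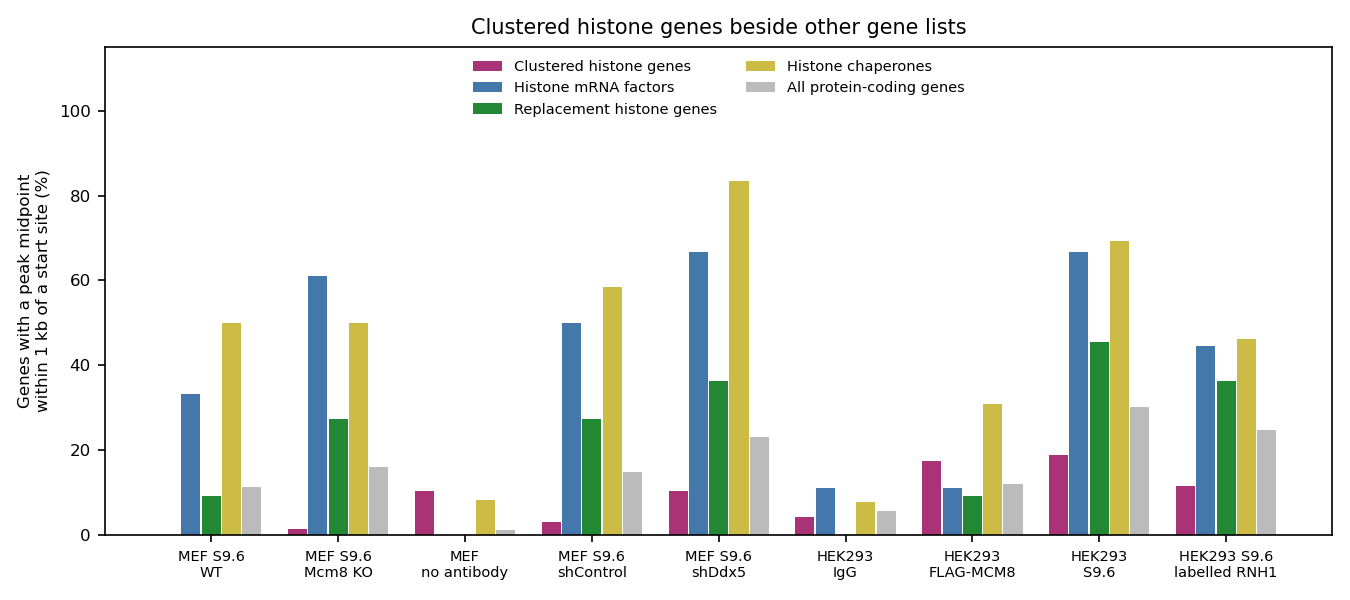
Share of genes (%) with a peak midpoint within 1 kb of a TSS, by list, for clustered histone genes (purple), histone mRNA factors (blue), replacement histone genes (green), histone chaperones (yellow) and all protein-coding genes (grey). In the S9.6 lists the purple bar is the lowest of the 5, and without antibody it is the highest.

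Many members have near-identical copies elsewhere in the genome. The share of 32-base stretches of a member that have another exact copy in the genome had a median of 54.9% in mouse and 9.11% in human, and was over 50% in 38 of 67 mouse and 13 of 69 human members. In mouse it was highest in H2A genes, with a median of 74.6%, then 60.8% in H3, 53.9% in H2B, 47.4% in H4 and 4.11% in H1. In mouse the median was 44.1% in the 12 members with an S9.6 peak and 57.2% in the 55 without, and in human 11.5% and 8.72%. The 16 distinct mouse peaks at members lay mostly on unique sequence, with a median of 2.11% and a highest share of 33.5%, at Hist1h3e. Of the 30 human ones 7 were over 50%, among them H4C11 at 90.8% and both H4C14 peaks at 100%. How reads with several matches were placed is not given in the sources used here, and the part of these copies in the low counts was not tested.

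As a check of the labelled cell type, peaks over or within 1 kb of 10 fibroblast genes were counted, and 3 had one for WT, 4 for KO, 2 for shControl and 4 for shDdx5. Of 5 neural genes, 1, 1, 3 and 2 had a peak in the same lists, of 5 epithelial genes 0, 1, 1 and 0, and of 5 blood genes 0, 1, 1 and 0. At start sites the fibroblast genes had 2, 3, 2 and 4, and the other 3 groups 0 in every MEF list. Most fibroblast genes had no peak, so these lists say little about the cell type.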

How the data were processed

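CUT&Tag peak lists of 9 libraries were used, 5 from MEFs and 4 from HEK293 cells, 1 library in each group taken from its label. Per the study's methods, about the same number of cells entered each library, reads were aligned with bowtie2 to mm10 or hg38, and peaks were called per library with MACS2 without the no-antibody library as input. The submitters' processing notes name MACS2 version 2.1.2 and the methods a later one, so the version used is unclear. For each peak the authors deposited a fold enrichment (a ratio to the local background), the −log10 p-value, the −log10 q-value, a score that repeats the p-value and was not used, and the summit. The handling of duplicate and multiply matching reads is not given in the sources used here. MEF peaks were called at a less strict p than HEK293 peaks, so no difference between lists of the 2 cell types was read.

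Peaks on autosomes, X and Y were set against protein-coding genes of GENCODE M21 and v44 (over the gene or within 1 kb, or midpoint within 1 kb of any annotated TSS of the gene). Shares have exact binomial 95% intervals, which cover counting error only. The pileup at a summit was solved from fold and p, and depth was estimated as the lowest local background divided by the shortest peak of a list, so depths are relative. The solving of the pileup and the counting of peaks near genes were tested on simulated data, and the depth estimate was not. Copies were exact matches of 32-base stretches on either strand of the assembled chromosomes. Promoters ran from 250 bases before to 50 after a TSS. Members named are the 5 with the highest −log10 q in each list, those that changed between paired lists, those with both FLAG-MCM8 and S9.6 peaks, and those with a peak in a control list. The motifs, gene lists and alternatives were chosen with earlier results of these data known. Stretches were split at gaps of 500 kb, a value set after the data were seen. Python 3.11.15, scipy 1.17.1, pandas 2.3.3 and numpy 2.4.6 were used.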

Additional observations from a re-analysis of the deposited data

How the results depend on the processing

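Of 89 values recomputed under 7 alternatives, 59 stayed within 1.5 times the main value, 29 moved farther and 1 turned its sign. Where a peak had to overlap the gene itself, members with a peak numbered 0 in WT, 0 in KO, 4 without antibody, 1 in shControl, 8 in FLAG-MCM8 and 5 in the RNH1 list, the difference of KO minus WT was 0, and 4 members had both FLAG-MCM8 and S9.6 peaks. With peak midpoints within 1 kb of a TSS, WT had 0 and IgG 3, and the difference of KO minus WT turned from -1 to 1, which rests on the downstream peaks of WT. At a q of 0.05 or lower WT had 1, KO 0, no antibody 1 and shControl 0. At a q of 1e-05 or lower all 5 MEF lists had 0, FLAG-MCM8 had 9 and S9.6 8, the differences of KO minus WT and of shDdx5 minus shControl were 0, and that of S9.6 minus the RNH1 list was 2. As distinct peaks, FLAG-MCM8 had 9, and 4 of them overlapped an S9.6 peak. With the same number of strongest peaks from each list (4314 in MEFs, 12497 in HEK293 cells) KO had 0 and shControl 0, and the difference of KO minus WT was -2. Leaving out peaks with a control peak moved no value farther than 1.5 times. No replicates exist, so leaving out a replicate was not possible, and every count of a few peaks is limited by the depth of 1 library.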
